A study of Mus musculus with 52 samples.

Results

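Gonadal fat of female mice with the expanded Q111 huntingtin allele was compared with that of females with the short Q20 allele, in 7 of the 52 small RNA libraries of the series. The libraries were chosen by genotype and sex alone, as the 3 labelled Q111 female and the 4 labelled Q20 female. All 7 came from C57BL/6 females aged 6 months that carried 1 knock-in copy of huntingtin, and in females the fat around the gonad is periovarian fat. Q111 females were housed with Q111 mice, and Q20 females with wild-type and Q20 mice, so allele and housing cannot be told apart. The labels do not state that the libraries of a group came from separate animals, so p-values measure the spread between these libraries.

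Huntington's disease is caused by expansion of a CAG repeat in the huntingtin gene, which lengthens a glutamine tract in the protein. Mouse knock-in alleles carry such a repeat in the endogenous gene, and the number in the allele name gives its length, with Q20 in the normal range and Q111 in the expanded range. Huntingtin is made in most tissues, and weight loss is a known feature of the disease. MicroRNAs are cut from hairpin precursors by Drosha and Dicer, and the mature strands guide Argonaute proteins to messenger RNAs, which are then repressed. In white fat, microRNAs are known to act on adipocyte differentiation, lipid storage and insulin action.

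Expression was measured as estimated read counts for 1187 hairpin precursors, named by miRBase accession alone, with the reads of both arms of a hairpin in 1 value. The files and the reference tables used here do not pair these accessions with microRNA names, so no name, role, position or sequence is given to any of them. For the same reason the tissue label could not be checked against fat or ovary markers. The sex label could be checked: on a score of 116 precursors called between the sexes in the lane 5 libraries of wild-type and Q175 mice, all 7 libraries lay on the female side, from 0.352 to 0.659. The 8 Q111 and Q20 males lay between -0.892 and -0.148. Total estimated counts ran from 3377220 to 5226475 in the 7 libraries, and 299 to 316 precursors reached 10 counts in a library. The 5 most abundant precursors took 57.3% to 67.8% of a library's counts.

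The column names carry a lane token that nearly follows the genotype. All 3 Q111 females were in lane 1, as was Q20 replicate 4, while Q20 replicates 1 to 3 were in lane 3. Comparisons within lane 1 therefore set 3 libraries against 1, and their values are given beside the pooled ones.

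No precursor differed between Q111 and Q20 females past the threshold of edgeR's quasi-likelihood test, an adjusted p under 0.05 (0 of 317 tested, 0%). The lowest adjusted p was 0.267. At an unadjusted p under 0.05 there were 43 precursors, 13.6% of those tested, of which 32 (10.1%) were higher and 11 (3.47%) lower in Q111 females. DESeq2 gave 2 calls on the same counts, 0.631% of those tested, both higher in Q111 females, and limma on log2(RPKM + 1) gave 0. Without a filter on low counts edgeR gave 5 calls of 787 (0.635%), and it gave 3 without Q111 replicate 3, 3 without Q20 replicate 4 and 1 without Q20 replicate 1. The median log2 fold change over the 317 precursors was -0.01 and the median absolute change was 0.25, close to the median standard error of 0.26.

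**Figure D1:**
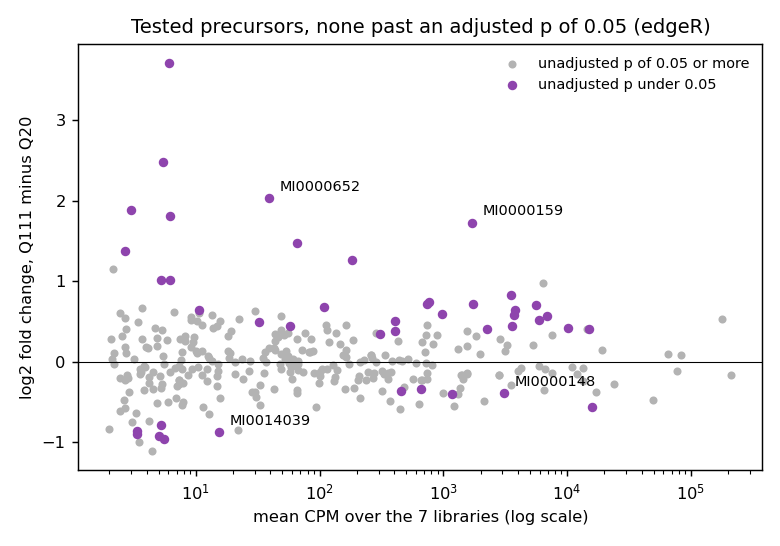
Log2 fold change (Q111 minus Q20 females) of the 317 tested precursors against mean CPM over the 7 libraries, on a log axis, with an unadjusted p under 0.05 in purple. The 43 purple points hold 32 above 0 and 11 below, and none passed an adjusted p of 0.05 by edgeR.

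The 2 precursors called by DESeq2 also had the lowest p by edgeR among those with a mean of at least 10 CPM, the count relative to a library total scaled by TMM (trimmed mean of M-values). MI0000652, a hairpin of 72 nucleotides, stood at 80.4, 100.2 and 24.3 CPM in Q111 replicates 1 to 3 and at 11.4, 12.6, 25.1 and 17.99 CPM in Q20 replicates 1 to 4. Q111 replicates 1 and 2 were far above every Q20 library, but Q111 replicate 3 lay just below Q20 replicate 3, so the groups overlapped. The means were 68.3 ± 39.3 CPM (SD, n = 3) and 16.8 ± 6.24 CPM (SD, n = 4). The log2 fold change was 2.03 (SE 0.44, edgeR adjusted p = 0.267, DESeq2 adjusted p = 0.000659).

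MI0000159, of 68 nucleotides, followed the same pattern at a higher level. It stood at 2846, 4554 and 1035 CPM in Q111 replicates 1 to 3, and at 769, 718, 1283 and 623 CPM in Q20 replicates 1 to 4. The order of the highest 4 libraries was that of MI0000652, with Q111 replicate 2 first, then Q111 replicate 1, Q20 replicate 3 and Q111 replicate 3. The means were 2812 ± 1760 CPM (SD, n = 3) and 848 ± 296 CPM (SD, n = 4). The difference was 1.73 on the log2 scale (SE 0.43, edgeR adjusted p = 0.267, DESeq2 adjusted p = 0.00274). Leaving out Q111 replicate 3 gave both precursors an edgeR adjusted p of 0.00186, with log2 changes of 2.52 for MI0000652 and 2.21 for MI0000159. Over all alternatives the edgeR, DESeq2 or limma adjusted p ran from 3.29e-05 to 0.983 for MI0000652 and from 0.00186 to 0.983 for MI0000159.

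Among the lower precursors, MI0000148, of 83 nucleotides, stood at 2535, 2576 and 2721 CPM in Q111 replicates 1 to 3 and at 3554, 3319, 3453 and 3365 CPM in Q20 replicates 1 to 4. All 3 Q111 libraries lay below all 4 Q20 libraries, and Q20 replicate 4, in lane 1, sat among the other Q20 libraries. The means were 2611 ± 98.0 CPM (SD, n = 3) and 3423 ± 104 CPM (SD, n = 4). On the log2 scale the difference was -0.39 (SE 0.14, edgeR adjusted p = 0.302).

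MI0014039, of 60 nucleotides, stood at 6.81, 14.3 and 10.2 CPM in Q111 replicates 1 to 3, from 31 to 52 counts a library. In Q20 replicates 1 to 4 it stood at 14.6, 21.4, 19.9 and 20.1 CPM, from 60 to 85 counts. The groups did not overlap, though Q111 replicate 2 and Q20 replicate 1 nearly met. Its log2 fold change was -0.87 (SE 0.30, edgeR adjusted p = 0.280). Neither of these lower precursors passed DESeq2's test, with adjusted p-values of 0.145 for MI0000148 and 0.141 for MI0014039.

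**Figure D2:**
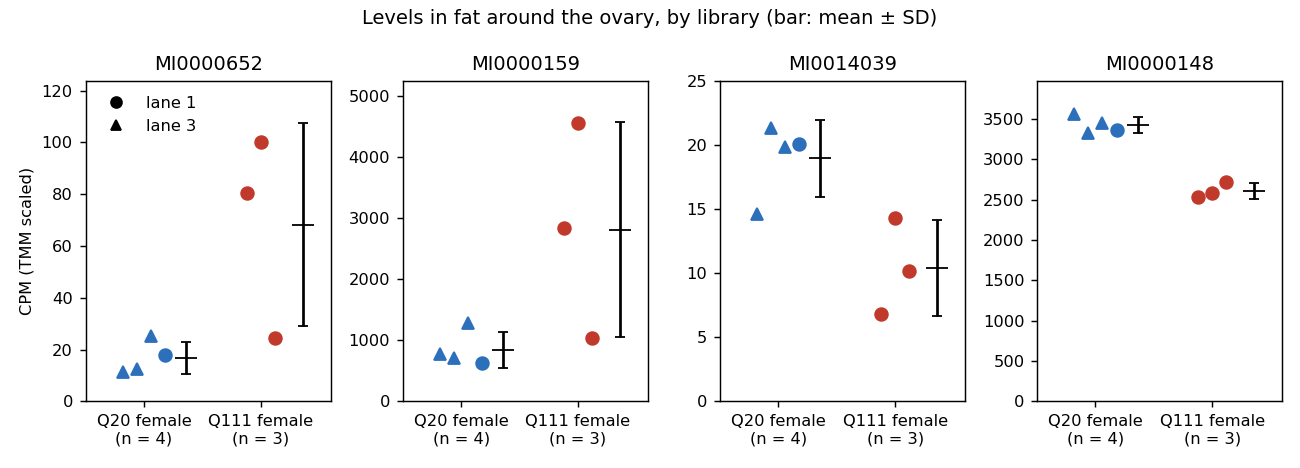
Level in CPM of the 4 named precursors in each of the 4 Q20 and 3 Q111 female libraries, with circles for lane 1, triangles for lane 3 and a bar for the mean ± SD of each group. MI0000652 and MI0000159 were high in Q111 replicates 1 and 2 only, at 80.4 CPM or more and 2846 CPM or more, while all 3 Q111 libraries lay below the Q20 libraries in MI0014039 and MI0000148.

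In 37 of the 317 precursors, 11.7%, the 3 Q111 libraries did not overlap the 4 Q20 libraries. They lay above the Q20 range in 27 (8.52%) and below it in 10 (3.15%). This split depended on scaling: it was 19 above and 14 below with TMM factors over all 52 libraries, and 14 above and 10 below on the deposited RPKM values. Omitting 1 library raises such a count by construction, to 112 without Q111 replicate 2, 65 without Q111 replicate 3 and 57 without Q20 replicate 1. Of the 37, 26 also had an unadjusted p under 0.05 by edgeR, 19 of them higher and 7 lower. Absolute log2 changes in the 37 ran from 0.13 to 3.71, with a median of 0.44. Q20 replicate 4, in lane 1, was the Q20 library nearest to Q111 in 13 of the 27 and 2 of the 10. Over all 317 tested precursors it was nearest in 90. The part of lane in this count was not tested.

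The precursors with an unadjusted p under 0.05, 13.6% of all tested, were found in each range of levels, but unevenly. Their share was largest above 1000 CPM, where the median standard error was smallest (0.19), and smallest between 10 and 100 CPM. Among the 59 precursors above 1000 CPM, which together held 96.8% of the counts, 12 were higher and 3 lower at that p, and the median absolute log2 change of these 15 was 0.56. Between 100 and 1000 CPM the numbers were 8 higher and 2 lower of 75, and between 10 and 100 CPM they were 5 higher and 1 lower of 93. Below 10 CPM there were 7 higher and 5 lower of 90, with a median absolute change of 1.012 and a median standard error over the 90 of 0.37. The median log2 change in each of these 4 ranges lay between -0.07 and 0.04. TMM centres the changes near 0 over all precursors, so these medians describe the ranges relative to each other.

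Hairpin length, recovered from the ratio of counts to RPKM, was known for 230 of the 317 tested precursors. At an unadjusted p under 0.05, 6 were higher and 2 lower of the 48 with 49 to 70 nucleotides. There were 7 higher and 1 lower of the 77 with 71 to 85 nucleotides, and 15 higher and 3 lower of the 105 with 86 to 147 nucleotides. Each class held a share near the 13.6% of all 317 tested, and a difference between classes was not tested. The median log2 change lay between 0.01 and 0.04 in all 3 length classes.

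Q111 replicate 1 was the highest Q111 library in 17 of the 32 precursors that were higher at an unadjusted p under 0.05, and the lowest in 10 of the 11 that were lower. Over all 317 precursors it was the highest Q111 library in 111 and the lowest in 118. Without it there were 21 precursors at that p. Without Q111 replicate 2 there were 78, with the median log2 change of all tested precursors at 0.16. The first principal component of the 7 libraries, with 36.7% of the variance, placed Q111 replicate 1 at 9.37, replicate 3 at 3.20 and replicate 2 at 0.959. The Q20 libraries lay between -5.63 and -1.91, with the lane 1 library at -3.45. The groups did not overlap on this component, and their means differed by 7.90 (exact 2-sided permutation p = 0.0571, the smallest p that 35 splits can give). Spread within a group was larger in Q111, with a median SD of 0.29 on the log2 scale over 227 precursors of at least 10 CPM, against 0.23 in Q20. Without Q111 replicate 1 the Q111 value was 0.21. That value rests on 2 libraries, and a median SD runs lower with fewer libraries, so it cannot be set against the others.

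**Figure D3:**
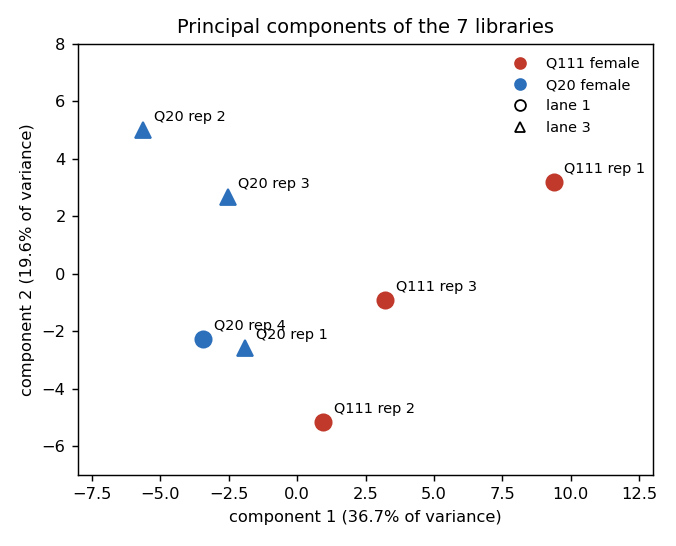
Scores of the 7 libraries on principal components 1 and 2 of log2 CPM, with red for Q111, blue for Q20, circles for lane 1 and triangles for lane 3. Q111 libraries have positive scores on component 1 and Q20 libraries negative ones, the lane 1 library of Q20 at -3.45 among them.

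Detection near the count limit was compared as well. Of the 1187 precursors, 787 had a count in at least 1 of the 7 libraries, and 391 had one in all 7. Of the 787, counts were found in Q111 alone for 76 precursors, with at most 8 counts over the 3 libraries. They were found in Q20 alone for 103, with at most 21 counts over the 4 libraries. The larger number of Q20 libraries by itself favours precursors found in Q20 alone. No precursor was found in all 3 Q111 libraries and in 0 Q20 libraries. The reverse, counts in all 4 Q20 libraries and in 0 Q111 libraries, held for 2 precursors.

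How far lane moves precursor levels was measured in female libraries outside this comparison, 6 in lane 1 and 4 in lane 3, from Q80, Q92 and Q140 mice with genotype as a covariate. The library labelled Q140 female replicate 2 was left out because its sex score was -0.814, on the male side. edgeR called 2 of 324 precursors (0.617%), both higher in lane 1, and 34 (10.5%) had an unadjusted p under 0.05. The latter number was 16 without Q140 female replicate 1 and 18 without Q140 female replicate 3.

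MI0000573, of 90 nucleotides, averaged 4310 ± 311 CPM in lane 1 (SD, n = 6) and 1892 ± 224 CPM in lane 3 (SD, n = 4), a log2 difference of 1.15 (SE 0.12, edgeR adjusted p = 0.000161). Between Q111 and Q20 females its log2 fold change was 0.84 (SE 0.27, edgeR adjusted p = 0.276). Q111 replicates 1 to 3 held 3905, 5784 and 4441 CPM, Q20 replicate 4 held 4146 CPM, and Q20 replicates 1 to 3 held 2433, 1923 and 2058 CPM. The Q20 library of lane 1 thus lay inside the Q111 range, and the lane 3 libraries of Q20 lay below every lane 1 library. Within lane 1 the log2 difference between Q111 and Q20 was 0.16.

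MI0021923, of 99 nucleotides, averaged 27.5 ± 6.49 CPM in lane 1 (SD, n = 6) and 9.94 ± 2.14 CPM in lane 3 (SD, n = 4), a log2 difference of 1.48 (SE 0.25, edgeR adjusted p = 0.0105). That call was lost without Q92 female replicate 4 (adjusted p = 0.0903) and with Q140 female replicate 2 included (adjusted p = 0.109). Q20 replicate 4 held 34.9 CPM, more than the 11.9, 31.6 and 18.4 CPM of Q111 replicates 1 to 3, while Q20 replicates 1 to 3 held 10.7, 10.6 and 9.80 CPM. On log2 CPM the difference between Q111 and Q20 was 0.42 over the 7 libraries and -0.85 within lane 1, so its direction turned; over the 7 libraries the edgeR adjusted p was 0.806.

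**Figure D4:**
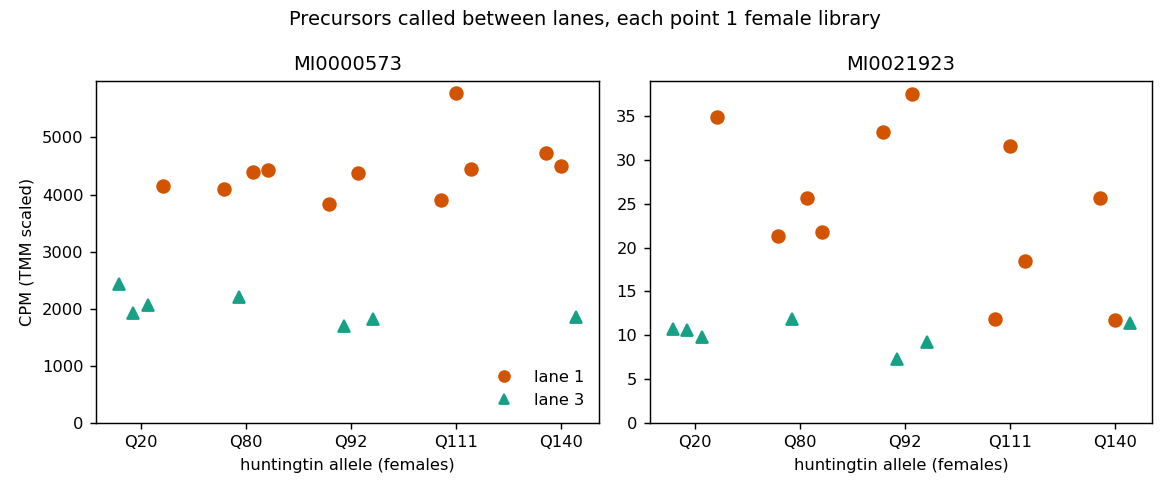
Level in CPM of the 2 precursors called between lanes, in each female library of the Q20, Q80, Q92, Q111 and Q140 alleles, with orange circles for lane 1 and green triangles for lane 3. In MI0000573 lane 1 and lane 3 libraries do not overlap, and Q20 replicate 4 (4146 CPM) sits with the lane 1 libraries of the other alleles.

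With lane as a covariate over the 17 females of these alleles, the Q111 to Q20 comparison had 11 of 339 precursors at an unadjusted p under 0.05 (3.24%, 2 higher and 9 lower) and 0 calls by edgeR. Lane nearly follows genotype, so a lower count in this fit can reflect lost precision or lane, and these were not told apart. Within lane 1, all 32 higher and 11 lower precursors of the pooled comparison kept their direction. Their median log2 differences were 0.45 and -0.50, against 0.68 and -0.71 when set against the lane 3 libraries of Q20. The lane 1 library of Q20 was also in the pooled fit that picked them. Across 311 precursors, which are not independent replicates, the lane differences of the other alleles and the Q111 to Q20 changes had a Spearman's rho of 0.474 and a Pearson's r of 0.134. Within lane 1 these were 0.232 and -0.02. The part of lane in the 43 differences was not tested further.

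The 4 precursors named for the genotype comparison were not called between lanes. The edgeR adjusted p-values were 0.972 for MI0000652, 0.915 for MI0000159, 0.739 for MI0014039 and 0.739 for MI0000148. In that order, lane 1 minus lane 3 was -0.47 (SE 1.70), -1.14 (SE 1.72), -0.37 (SE 0.26) and -0.18 (SE 0.13) on the log2 scale. With such standard errors the fit cannot decide whether lane moves MI0000652 or MI0000159. For MI0014039 and MI0000148 the lane difference had the sign of the Q111 change. Between Q111 and Q20 within lane 1, the log2 differences of the 4 were 1.67, 1.93, -0.97 and -0.37. Against the lane 3 libraries of Q20 they were 1.89, 1.41, -0.85 and -0.40, in the same order. Each kept its direction in both.

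MI0000652 and MI0000159 varied between females of other genotypes as well. Of the 18 other female libraries, 8 held more of MI0000652 than the lowest Q111 library and 3 held more than the highest. The same 2 counts, 8 and 3, held for MI0000159. The highest was Q92 female replicate 3, with 362.5 CPM of MI0000652 and 14924 CPM of MI0000159, followed by Q80 female replicate 2 with 186 and 9042 CPM and Q92 female replicate 1 with 156 and 7286 CPM. These 3 libraries were in lanes 1 and 3. Other females of the same groups were low in both: Q92 female replicate 2 held 8.16 and 440.1 CPM, and Q80 female replicate 4 held 11.1 and 556 CPM. In wild-type females the levels were 30.9 ± 14.9 and 982 ± 473 CPM (SD, n = 3), measured in lane 5. The high values in 2 of 3 Q111 females were therefore within the range seen in Q80 and Q92 females. They lay above the highest Q20 female, at 25.1 and 1283 CPM, and the highest wild-type female, at 48.0 and 1469 CPM. Whether allele has a part in this was not tested.

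**Figure D5:**
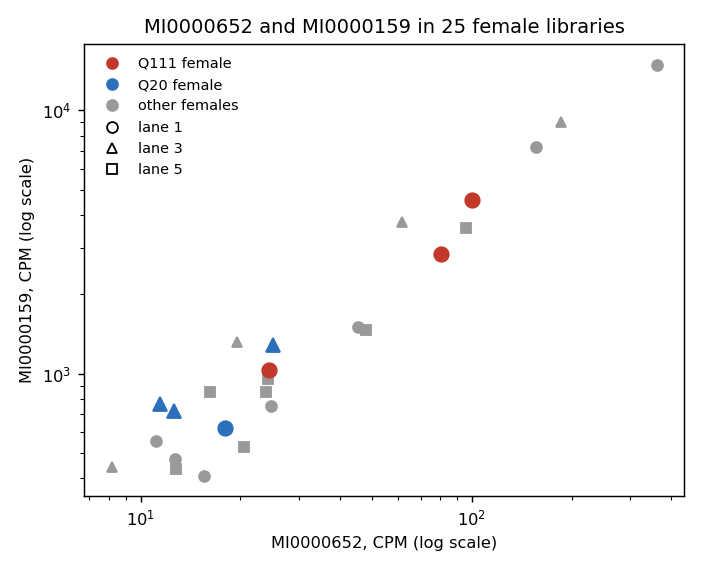
Level of MI0000159 against that of MI0000652, both in CPM on log axes, in the 25 female libraries, with red for Q111, blue for Q20, grey for other genotypes and the symbol for the lane. Libraries high in one were high in the other, and Q111 replicates 1 and 2 (80.4 and 100.2 CPM of MI0000652) lie among grey points from Q92, Q140 and Q175 females.

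The level of MI0000148 in Q111 females was low for its lane series. Of the 11 Q80, Q92 and Q140 females, 2 held less than the highest Q111 library, at 2721 CPM: Q80 female replicate 2 with 2719 CPM and Q92 female replicate 3 with 2481 CPM. Below the lowest Q20 female, at 3319 CPM, lay 6 of the 11. Group means were 3038 ± 292 CPM in Q80 (SD, n = 4), 3163 ± 488 CPM in Q92 (SD, n = 4) and 3373 ± 502 CPM in Q140 females (SD, n = 3). Wild-type and Q175 females, all in lane 5, held less, at 1682 ± 57.7 CPM (SD, n = 3) and 1631 ± 166 CPM (SD, n = 4), and genotype and lane cannot be told apart for them.

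MI0014039 was lower in 5 of the 11 Q80, Q92 and Q140 females than in the highest Q111 library, at 14.3 CPM. Its mean was 15.5 ± 0.632 CPM in Q80 (SD, n = 4), 15.4 ± 5.87 CPM in Q92 (SD, n = 4) and 8.63 ± 4.85 CPM in Q140 females (SD, n = 3), against 10.4 ± 3.76 CPM in Q111 females (SD, n = 3) and 19.0 ± 2.997 CPM in Q20 females (SD, n = 4). Of the 11 females of Q80, Q92 and Q140, 6 lay below the lowest Q20 female, at 14.6 CPM, the same number as for MI0000148. The Q140 values here include replicate 2, whose sex score lay on the male side.

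Whether the difference between Q111 and Q20 was the same in the fat of males, around the testis and epididymis, was tested with an interaction term over the 15 libraries of both alleles. By edgeR 0 of 331 precursors were called (0%), and 16 had an unadjusted p under 0.05 (4.83%), 14 with a larger value in females and 2 with a smaller one. That number ranged from 7 without Q111 female replicate 1 to 26 without Q20 male replicate 4. Without Q20 male replicate 2 it was 9, and the balance turned to 3 larger and 6 smaller. DESeq2 gave 2 calls (0.604%), MI0000652 and MI0000159 again.

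MI0000652 stood between 6.75 and 9.31 CPM in the 4 Q111 males, and at 13.7, 86.1, 7.07 and 10.2 CPM in Q20 males 1 to 4. The 4 Q111 males thus lay at the low end of the Q20 males, whose mean rested on replicate 2. The log2 difference, females minus males, was 3.94 (SE 1.06, edgeR adjusted p = 0.672, DESeq2 adjusted p = 0.0142). Without Q20 male replicate 2 it was 2.26 (edgeR adjusted p = 0.561).

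MI0000159 stood between 229 and 348 CPM in the Q111 males, and at 314, 2358, 325 and 315 CPM in Q20 males 1 to 4. Its log2 difference, females minus males, was 3.36 (SE 1.012, edgeR adjusted p = 0.672, DESeq2 adjusted p = 0.0253), and 1.79 without Q20 male replicate 2 (edgeR adjusted p = 0.670). For MI0000148 the interaction was -0.14 (SE 0.30) and for MI0014039 it was -0.68 (SE 0.55), with an edgeR adjusted p of 0.936 and 0.896. In whole fat, a change in the share of a cell type and a change in RNA per cell cannot be told apart for any of these precursors.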

How the data were processed

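Small RNA libraries of gonadal white fat were analysed from the deposited tables. Per the labels' protocols, a miRNeasy kit (Qiagen) gave total RNA, and Illumina libraries were built from an enriched fraction. Per the submitters' processing notes, CASAVA 1.8.2 was used. Not given in the sources used here were the aligner, genome build, miRBase release and counter. For each precursor the authors deposited estimated counts (89.1% whole within 1e-04), which were rounded before testing, because whole counts had been assumed when the tests were planned. RPKM values of the same libraries were deposited too.

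A precursor was tested where 3 or more fitted libraries held 10 or more counts, with edgeR 4.0.16 (quasi-likelihood, robust, TMM) in R 4.3.3, with Benjamini-Hochberg adjustment at 0.05. Printed CPM values use the TMM factors of the 7 libraries, extended to all 52 against the same reference library. Alternatives used DESeq2 1.42.0, limma 3.58.1, other filters and scalings, lane, a replicate block and single omissions. Log2 differences within lane 1 or against lane 3 use log2 CPM with a prior count of 2. Simulated data with known changes were used to check the edgeR fits. Of 9 pairs of libraries within the 2 groups, none was a duplicate (lowest chi-square over degrees of freedom, 156.5). In 4 tested precursors, every library equalled another precursor, and 0 of them had an unadjusted p under 0.05.

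The groups, tests and lists were chosen with earlier results of these data known. The 17 microRNA lists, with 218 members, matched 0 precursors and were not tested. Named precursors are the 2 in each direction with the lowest p and a mean of at least 10 CPM, and 2 called between lanes. The lane fit, the count of groups without overlap and the library it leaves out were added after seeing the data.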

Additional observations from a re-analysis of the deposited data

Results flagged for a closer look

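A gap test at the 95% level asked whether 1 library stood apart from the other 3 in groups of 4, for the precursors named above. It marked 9 values in 28 groups. Chance gives about 1 in 20 for independent groups of normally distributed values, and the distribution of these CPM values was not tested. The 28 groups are not independent: 6 of the 9 are 3 libraries that stood apart in both MI0000652 and MI0000159. Q80 female replicate 2 stood apart in MI0000652 (186 CPM, others 11.1 to 24.7), in MI0000159 (9042 CPM, others 474 to 753) and, as the 1 lane 3 library of its group, in MI0000573 (2211 CPM, others 4089 to 4437). Q175 female replicate 3 was high in MI0000652 (95.9 CPM, others 12.8 to 23.8) and MI0000159 (3586 CPM, others 436 to 852). Q20 male replicate 2 was high in MI0000652 (86.1 CPM, others 7.07 to 13.7) and MI0000159 (2358 CPM, others 314 to 325). Q20 female replicate 4, the lane 1 library of its group, held 34.9 CPM of MI0021923, and the other 3 held 9.80 to 10.7 CPM. Q175 female replicate 2 held 13.8 CPM of MI0021923, with 9.83 to 10.3 CPM in the others.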

How the results depend on the processing

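The count of 0 edgeR calls between Q111 and Q20 females became 2 with DESeq2 and 5 with no filter on low counts (4 higher, 1 lower, of 787), ran from 0 to 3 when 1 library was left out (3 without Q111 replicate 3, 3 without Q20 replicate 4, 1 without Q20 replicate 1), and was 0 under the other 10 alternatives, the replicate block among them. In all, 9 precursors were called in any alternative, 4 of them in more than 1. The number at an unadjusted p under 0.05, 43, was 66 with no filter and 21 to 78 in single omissions. With lane as a covariate it was 8 over all 18 females of the series and 11 without Q140 female replicate 2. On RPKM with limma it was 35, with 21 higher and 14 lower. The 4 named log2 changes kept their direction in all 19 alternatives. Precursors without overlap, 37, numbered 24 on RPKM values and 48 to 112 in single omissions, which widen the gap by construction. The interaction count of 0 became 2 with DESeq2 and was 0 otherwise, the replicate block within sex and single omissions included. The number at an unadjusted p under 0.05, 16, was 7 with lane as a covariate and 7 to 26 in single omissions. The lane count of 2 was 6 with DESeq2, 1 with Q140 female replicate 2 and 1 to 3 in single omissions. No sign of pairing by replicate number was seen (correlations of same-numbered deviations 0.0599, 0.0539 and 0.0190). Of 3 Q111 libraries, 0 correlated best with their own number, but 3 pairs are too few to exclude pairing. The block left the count at an unadjusted p under 0.05 at 43. The component 1 difference ran from 6.87 to 9.68 in single omissions and was 7.86 with TMM over all 52 libraries. The causes of these differences were not tested. Precision differed with level: the median standard error was 0.37 on the log2 scale below 10 CPM and 0.19 above 1000 CPM.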
